A study of Mus musculus with 14 samples.

Results

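The genes described here are 42 genes of the mitotic cell cycle, chosen by name from the 49585 genes of the deposited expression tables. They cover the licensing and copying of DNA, the supply of nucleotides, the cyclins and the kinase that drive division, the spindle and its checkpoint, and the proliferation mark Ki-67. All 42 were found in both tables, 1 for uninjured and 1 for injured muscle. The series asked what the loss of Myf6 does in adult mouse muscle. RNA-seq was made from hind limb skeletal muscle in 4 groups of 3 libraries, which were wild-type (WT) uninjured, Myf6 knockout (KO) uninjured, WT injured and KO injured. ChIP-seq was made with a Flag antibody in primary myotubes grown from adult satellite cells, as 1 library for Myf6 with 1 control. The labels do not give the age, sex or strain of the mice, the way the Myf6 gene was disrupted, or the kind and time of the injury. WT and KO libraries carry different numbers in the labels. Litter and batch are not given there, so genotype cannot be told apart from them. Every uninjured library has the letter L after its number and every injured library the letter R. Injury therefore cannot be told apart from whatever these letters stand for.

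Adult muscle fibres express Myf6 (MRF4), a member of the MyoD family of transcription factors. Its level was 46.3, 25.0 and 111 RPM in WT uninjured replicates 1 to 3 and 47.9, 121 and 72.5 RPM in WT injured replicates 1 to 3. In KO muscle it was 1.86, 3.46 and 2.27 RPM without injury and 3.32, 2.88 and 3.02 RPM with it, below every WT library. RPM, the unit of all levels here, is the number of reads assigned to a gene per 1000000 reads assigned to all genes of the library.

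Muscle fibres are multinucleate and do not divide. The dividing cells of a muscle are mainly satellite cells, which are its stem cells, and the immune, endothelial and connective tissue cells between the fibres. Before DNA is copied, Cdc6 and Cdt1 load the ring-shaped Mcm helicase onto replication origins, and geminin (Gmnn) blocks a further round. Cyclin E with its kinase starts S phase, cyclin A acts in S phase and later, and cyclin B with Cdk1 starts mitosis. At the end of mitosis the anaphase-promoting complex, with Cdc20 and the ubiquitin-conjugating enzyme Ube2c, marks cyclins for destruction. In quiescent cells the DREAM complex holds many of these genes off by binding a CHR element in their promoters, and in dividing cells the factors B-Myb and FoxM1 act on the same genes. NF-Y, which binds CCAAT boxes, works next to the CHR.

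The promoters of 34 of the 42 genes were in a RefSeq promoter table of assembly GRCm38.p6, and their shared elements are the reason for showing them. The 250 bases before the start of Ube2c, Cdk1 and Mki67 follow, read 5′ to 3′ on the strand of the gene, with each CCAAT box (CCAAT, or ATTGG on the other strand) and each CHR (TTTGAA or TTTAAA, or TTCAAA on the other strand) in capitals. These 3 genes carry both elements and are followed through all libraries below.
Ube2c, chr2:164769679-164769928, plus strand: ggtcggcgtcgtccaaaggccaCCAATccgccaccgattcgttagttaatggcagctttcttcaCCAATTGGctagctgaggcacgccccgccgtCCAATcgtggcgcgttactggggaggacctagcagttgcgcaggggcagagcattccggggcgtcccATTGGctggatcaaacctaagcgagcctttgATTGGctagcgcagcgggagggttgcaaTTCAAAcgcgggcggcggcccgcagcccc
Cdk1, chr10:69352913-69353162, minus strand: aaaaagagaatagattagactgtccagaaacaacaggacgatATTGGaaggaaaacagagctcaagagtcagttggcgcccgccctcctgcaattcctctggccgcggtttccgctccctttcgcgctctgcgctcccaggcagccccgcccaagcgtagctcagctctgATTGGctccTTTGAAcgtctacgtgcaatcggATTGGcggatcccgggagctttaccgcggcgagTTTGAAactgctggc
Mki67, chr7:135716380-135716629, minus strand: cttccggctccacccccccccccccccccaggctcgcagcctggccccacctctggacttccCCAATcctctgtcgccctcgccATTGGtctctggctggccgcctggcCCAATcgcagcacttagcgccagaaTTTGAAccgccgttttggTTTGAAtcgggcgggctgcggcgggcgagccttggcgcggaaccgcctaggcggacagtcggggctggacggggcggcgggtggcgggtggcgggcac

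In this window, searched on both strands, the Ube2c promoter held 6 CCAAT boxes and 1 CHR. In Ube2c, 2 of the 6 overlap in the stretch CCAATTGG, which reads as a box on each strand. Cdk1 and Mki67 each held 3 CCAAT boxes and 2 CHRs. The counts that follow are of genes, and a gene with more than 1 start counts if any of its promoters held the element. A CCAAT box was found in 26 of the 34 genes (76.5%), against 37.5% of the 27025 genes of the table, and at least 2 were found in 17 (50.0% against 11.5%). A CHR was found in 17 genes (50.0% against 28.1%), and both elements in 14 (41.2% against 10.1%). An E2F site, searched as the word TTGGCGC, the word TTCCCGC, the word TTGCCGC or the word TTCGCGC, was found in 10 (29.4% against 9.01%). The E-box, the core bound by factors of the MyoD family, was less common in these promoters than in the table as a whole. CANNTG was found in 16 genes (47.1% against 69.3%) and its form CAGCTG, a part of the first count, in 2 (5.88% against 14.7%). A match of letters is not a bound site.

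The 42 genes were weakly represented in the RNA of whole muscle. Library depth ranged from 1880087 to 49392471 reads, and a floor of 3 reads therefore lay between 0.0607 and 1.60 RPM. WT uninjured replicate 2 was the shallow library, where 1 read is worth 0.532 RPM. There 28 of the 42 genes had fewer than 3 reads and 11 had none. KO uninjured replicate 2, with 12704445 reads, had no read for 13 of them. The other 10 libraries had 13329975 reads or more, and in them between 35 and 42 of the genes reached 3 reads. WT injured replicate 1, the library with 13329975 reads, had a read for each of the 42. Over all genes, KO uninjured replicate 2 had a read for 14065, the fewest of the 12 libraries. The shallow library had a read for 14338 and WT injured replicate 1 for 19188. What set KO uninjured replicate 2 apart was not tested. Over the 12 libraries the means of the 42 genes ran from 0.195 RPM to 28.2 RPM, 19 of them were at 1 RPM or more, and 13 genes had at least 3 reads in every library, or 20 when the shallow library is left out. The 8 marker genes of muscle fibres were detected in each library. They summed to between 120700 and 130700 RPM in WT uninjured, 179500 and 181600 RPM in KO uninjured, 124300 and 159900 RPM in WT injured and 112500 and 172900 RPM in KO injured muscle, so that the uninjured genotypes did not overlap.

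None of the 42 genes passed the test for a difference between KO and WT uninjured muscle. The tested genes with the largest differences, all lower in KO, were Ube2c, the thymidylate synthase gene Tyms and the cyclin A gene Ccna2. Across the list 32 genes had a lower mean of log2(RPM + 1) in KO and 10 a higher one, with a median difference of -0.34, beside -0.14 over the 17303 genes with a mean of at least 0.1 RPM, of which 62.7% were lower. When single libraries were left out the median of the 42 ran from -0.19, without WT uninjured replicate 3, to -0.52, without WT uninjured replicate 2. The summed muscle fibre markers were higher in every KO than in every WT library of this comparison, and their part in these differences was not tested. TMM scaling, which assumes that most genes do not change, moved the median of all genes to -0.02 and that of the 42 to -0.26. The test was limma on log2(RPM + 1), which 17 of the 42 genes entered because they reached 1 RPM in at least 3 of the 6 libraries. At an adjusted p under 0.05, limma called 0 of the 17, edgeR and DESeq2 on recovered reads also called 0, and limma called 35 of all 12460 genes tested (0.281%). At an unadjusted p under 0.05 the count was 3 of 17, all lower in KO, beside 14.2% of all genes tested. In whole muscle, fewer cells of a kind and less RNA per cell cannot be told apart. P-values measure only the spread between these libraries, since the labels do not say how the samples of a group were taken.

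Ube2c was at 7.72, 6.38 and 4.05 RPM in WT uninjured replicates 1 to 3, and KO uninjured replicates 1 to 3 had 1.29, 1.89 and 1.92 RPM. All KO values lay below all WT values. On the log2(RPM + 1) scale the difference was -1.36 (SE 0.37, 95% interval -2.20 to -0.52, limma unadjusted p = 0.00523, adjusted p = 0.167). Tyms, which makes the thymidine nucleotide for DNA, was at 1.87, 3.19 and 4.02 RPM in WT and 0.761, 0.236 and 0.959 RPM in KO, again without overlap. Its difference was -1.27 (SE 0.40, 95% interval -2.17 to -0.38, limma adjusted p = 0.206). Ccna2 was at 2.58, 1.60 and 1.65 RPM in WT and 0.266, 0.394 and 0.304 RPM in KO, and these groups did not overlap either. The difference for Ccna2 was -1.14 (SE 0.36, 95% interval -1.94 to -0.34, limma adjusted p = 0.206). None of the 3 passed under any alternative, where the lowest adjusted p was 0.0577 for Ube2c, 0.0827 for Tyms and 0.0893 for Ccna2.

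Counted over all 42, the KO values lay wholly below the WT values for 9 genes, beside 12.9% of the 17303 genes. The 9 were the origin factors Cdc6 and Gmnn, Tyms, Ccna2, the spindle checkpoint kinase Bub1, Cdc20, Ube2c, survivin (Birc5) and the kinetochore motor Cenpe. They lay wholly above for 2, the checkpoint kinase Bub1b and the spindle assembly factor Tpx2, beside 5.5%. Tpx2 was at 6.02, 6.92 and 7.38 RPM in WT, and KO had 7.80, 14.6 and 17.9 RPM. The Tpx2 difference was 0.83 (SE 0.37, 95% interval -0.02 to 1.67, limma adjusted p = 0.362). Bub1b was at 0.322, 0.532 and 0.593 RPM in WT, and KO had 1.71, 1.73 and 0.888 RPM. Tpx2 thus had the opposite sign to Ube2c, although both genes act in mitosis. Cdc6, Bub1, Cdc20, Birc5, Cenpe and Bub1b were below 1 RPM in too many of the 6 libraries to be tested. In the shallow WT replicate 2 these genes had 1 read (Cdc20, Cenpe and Bub1b) or 2 reads (Cdc6, Bub1 and Birc5). Such counts are under the floor of 3 reads, so whether the groups are separate in these genes is uncertain.

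Of the genes of S phase in uninjured muscle, Pcna, the sliding clamp of DNA polymerase, was at 7.69, 7.98 and 14.7 RPM in WT uninjured and 8.90, 2.83 and 14.0 RPM in KO uninjured muscle, and the groups overlapped. The difference for Pcna was -0.37, with a 95% interval from -1.55 to 0.81, that is 0.342 to 1.755 times the WT level on this scale. The helicase subunit gene Mcm5 was at 3.19, 1.06 and 3.72 RPM in WT and 1.33, 3.94 and 1.57 RPM in KO, and Gmnn at 5.70, 5.32 and 12.1 RPM in WT and 4.18, 2.68 and 5.24 RPM in KO. Gmnn did not overlap, and its difference was -0.74 (SE 0.42, limma adjusted p = 0.460). Over the 10 genes of origin licensing and S phase, 7 had a lower and 3 a higher mean in KO, with a median difference of -0.26, and with TMM or upper quartile scaling 5 were lower and 5 higher. All 4 genes of nucleotide supply had a lower mean, with a median of -0.36.

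Another 10 genes, most of them of mitosis, reached at most 3.64 RPM in uninjured muscle. Mki67, whose protein coats mitotic chromosomes, was at 3.64, 0 and 0.988 RPM in WT and 0.647, 0.945 and 0.959 RPM in KO. The 0 belongs to the shallow WT library, where a count of 0 allows up to 1.60 RPM. Cdk1 was at 1.58, 0 and 0.692 RPM in WT and 0.266, 0.315 and 0.514 RPM in KO, and the topoisomerase gene Top2a at 2.06, 0 and 1.61 RPM in WT and 0.342, 0.472 and 0.865 RPM in KO. All 3 genes had their lowest WT value in that shallow library and the groups overlapped. Plk1, a mitotic kinase, was at 0.418, 2.13 and 1.65 RPM in WT and 0.761, 0 and 0.327 RPM in KO. Foxm1 was at 1.58, 1.06 and 0 RPM in WT and 0.0761, 0.551 and 0.398 RPM in KO. Birc5 was at 0.740, 1.06 and 0.659 RPM in WT and 0.380, 0 and 0.304 RPM in KO, and it was the only one of this trio without overlap. The WT value of 1.06 RPM for Birc5 rests on 2 reads. Rrm2, the small subunit of ribonucleotide reductase, was at 0.772, 0 and 1.68 RPM in WT and 0.380, 0 and 0.725 RPM in KO. The cyclin genes Ccne1 (0.225, 0.532 and 1.32 RPM in WT, and 1.07, 0 and 0.631 RPM in KO) and Ccnb1 (0.418, 0 and 0 RPM in WT, and 0, 0 and 0.210 RPM in KO) and the kinetochore gene Cenpf (0.579, 0 and 0.461 RPM in WT, and 0.0380, 0 and 0.0701 RPM in KO) overlapped between the genotypes. These 10 genes were below the limit for testing in uninjured muscle.

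**Figure D1:**
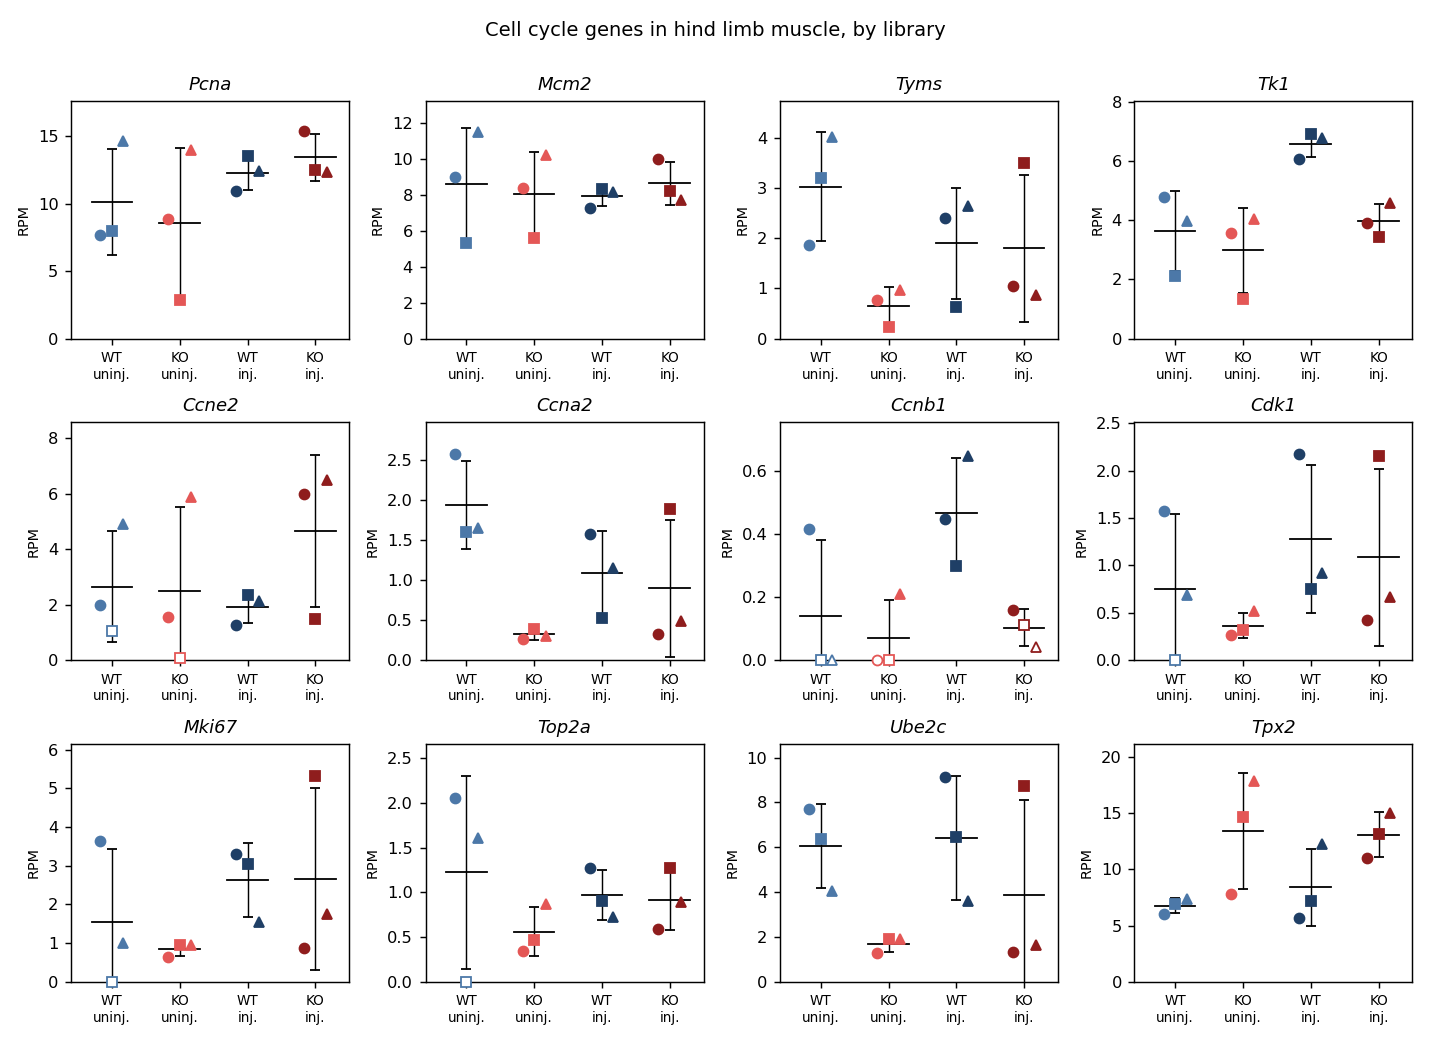
Level of 12 of the 42 genes in RPM (linear axes) in the 12 libraries, by genotype and injury; circles, squares and triangles are replicates 1, 2 and 3, open symbols had fewer than 3 reads, and black lines and bars give the mean and SD of 3 libraries, cut at 0. In uninjured muscle the KO values of Tyms, Ccna2 and Ube2c lie below all WT values, and in injured KO muscle replicate 2 is the highest for Tyms, Ccna2, Cdk1, Mki67, Top2a and Ube2c.

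In injured muscle, too, none of the 42 genes passed the test between KO and WT, and as many of their means were higher as lower. The mean was higher in KO for 21 genes and lower for 21, with a median difference of -0.01, beside 0.01 over the 17303 genes. This split rested on single libraries, being 14 higher and 28 lower without KO injured replicate 2 and 28 higher and 14 lower without WT injured replicate 1. At an adjusted p under 0.05, limma called 0 of 20 tested genes, edgeR and DESeq2 called 0, and limma called 34 of all 12625 genes (0.269%). At an unadjusted p under 0.05 limma gave 1 gene, Tk1, beside 10.3% of all genes. KO values lay wholly below WT values for 4 genes (Gmnn, Rrm1, Tk1 and Ccnb1), beside 8.33%, and wholly above for 3 (Mcm3, Ccne1 and Anln), beside 7.91%.

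Tk1, the thymidine kinase of dividing cells, was at 6.08, 6.89 and 6.77 RPM in WT injured and at 3.91, 3.43 and 4.58 RPM in KO injured replicates 1 to 3. The groups did not overlap. The difference was -0.61 (SE 0.18, 95% interval -1.05 to -0.18, limma unadjusted p = 0.0123, adjusted p = 0.339). Ube2c was at 9.15, 6.48 and 3.598 RPM in WT, against 1.31, 8.74 and 1.62 RPM in KO, so that a single KO library, replicate 2, lay among the WT values. Its difference was -0.85 (SE 0.59, 95% interval -2.24 to 0.53, limma adjusted p = 0.656). Ccne2, a cyclin E gene, showed the reverse arrangement, with 1.28, 2.36 and 2.14 RPM in WT and 5.996, 1.49 and 6.48 RPM in KO. Its difference was 0.81 (SE 0.44, 95% interval -0.24 to 1.87, limma adjusted p = 0.576). Bub1b was at 0.750, 0.0374 and 1.45 RPM in WT and 1.58, 2.71 and 0.992 RPM in KO, a difference of 0.70 (SE 0.38, limma adjusted p = 0.577). Without KO injured replicate 2, Ube2c (-1.52, adjusted p = 0.0245) and Ccne2 (1.33, adjusted p = 0.0137) passed in limma, as did 2343 of all genes. With the same filter and 1 library fewer, at most 20 of the 42 and 12625 of all genes could enter that fit.

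KO injured replicate 2 was the highest library of its group for 25 of the 42 genes and for 17 of the 26 genes that act in mitosis, beside 48.0% of the 17303 genes. KO uninjured replicate 3 was likewise the highest of its group for 25 of the 42 and 15 of the 26, beside 54.1%. Mki67 was at 3.30, 3.03 and 1.53 RPM in WT injured and at 0.883, 5.31 and 1.76 RPM in KO injured muscle, where replicate 2 was the highest and replicate 1 the lowest of all 6. Cdk1 was at 2.18, 0.749 and 0.919 RPM in WT and 0.428, 2.16 and 0.668 RPM in KO. Ccna2 was at 1.58, 0.524 and 1.15 RPM in WT and 0.321, 1.88 and 0.486 RPM in KO. In each of these genes KO replicate 2 was the highest library of its group. The same library had 23.2% of its reads on mitochondrial genes, against 4.95% and 4.30% in the other two, and endothelial markers summing to 411 RPM against 261 and 235 RPM. Its muscle fibre markers summed to 112500 RPM against 167500 and 172900 RPM, its regenerating fibre markers to 802 RPM against 2199 and 1947 RPM, and its adipocyte markers to 60.6 RPM against 400 and 198 RPM, each the lowest of the group. Erythroid markers summed to 477 RPM against 131 and 227 RPM, and macrophage markers to 90.3 RPM against 90.1 and 90.7 RPM. The part of these differences in the gene values was not tested.

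Other mitotic genes of injured muscle were spread in the same way. Plk1 was at 0.600, 0.524 and 0.689 RPM in WT and 0.509, 2.21 and 0.283 RPM in KO, and Birc5 at 0.600, 0.824 and 0.191 RPM in WT and 0.214, 1.16 and 0.445 RPM in KO. Cenpf was at 0.450, 0.112 and 0.459 RPM in WT and 0.0803, 0.719 and 0.283 RPM in KO, and Foxm1 at 0.900, 0.225 and 0.268 RPM in WT and 0.482, 1.11 and 0.324 RPM in KO. In these 4 genes KO replicate 2 was again the highest library of the 6. Top2a (1.28, 0.898 and 0.727 RPM in WT, and 0.589, 1.27 and 0.891 RPM in KO) overlapped, whereas Ccnb1 (0.450, 0.300 and 0.651 RPM in WT, and 0.161, 0.111 and 0.0405 RPM in KO) was lower in every KO library.

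Among the genes of S phase in injured muscle, Pcna was at 10.9, 13.5 and 12.4 RPM in WT and 15.4, 12.5 and 12.4 RPM in KO. Its difference was 0.12 with a 95% interval from -0.31 to 0.54, that is 0.809 to 1.455 times the WT level on this scale. The helicase genes Mcm2 (difference 0.11, 95% interval -0.32 to 0.53) and Mcm3 (0.42, 95% interval -0.02 to 0.86) were measured to a like precision. Mcm3 was at 3.15, 2.47 and 3.33 RPM in WT and 4.10, 4.59 and 4.25 RPM in KO, without overlap. Gmnn was at 6.08, 7.001 and 6.24 RPM in WT and 4.66, 3.82 and 5.61 RPM in KO, also without overlap and with the opposite sign (-0.40, 95% interval -0.86 to 0.07). Tyms was at 2.40, 0.636 and 2.64 RPM in WT and 1.044, 3.49 and 0.871 RPM in KO, and overlapped, unlike in uninjured muscle. Ccne1 was at 0.450, 0.337 and 0.459 RPM in WT and 1.29, 1.99 and 0.709 RPM in KO, Rrm2 at 1.05, 0.449 and 1.23 RPM in WT and 1.02, 0.221 and 0.952 RPM in KO, and Mcm5 at 2.03, 0.936 and 1.03 RPM in WT and 1.45, 1.77 and 1.11 RPM in KO. Of the last 3 genes, Ccne1 was higher in every KO library, and Rrm2 and Mcm5 overlapped.

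**Figure D2:**
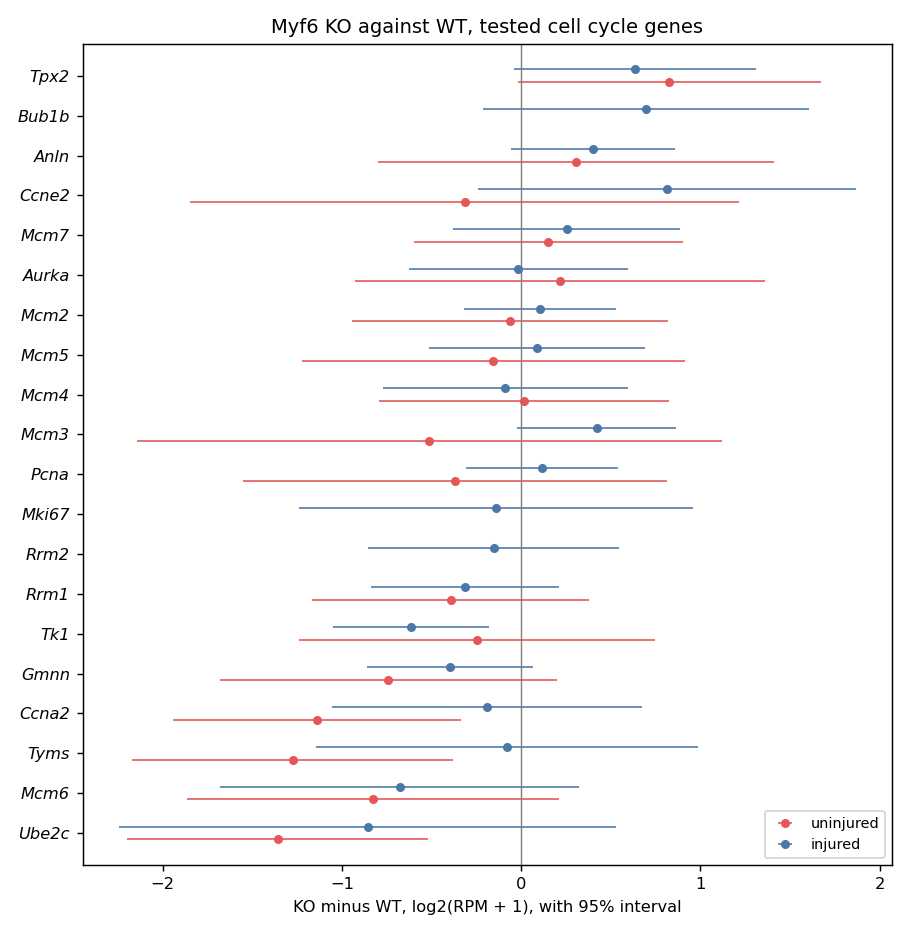
Difference between KO and WT in log2(RPM + 1) for the genes tested, 17 in uninjured muscle (red) and 20 in injured muscle (blue); points are the limma estimates and lines their 95% intervals, with 3 libraries a group. Ube2c, Tyms and Ccna2 in uninjured muscle and Tk1 in injured muscle have intervals that leave out 0 before adjustment, and none passed after it.

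Injury raised none of the 42 genes past the threshold in either genotype. In WT muscle the means of 23 genes were higher and of 19 lower in injured than in uninjured libraries, with a median difference of 0.02, beside 0.07 over the 17303 genes. That split rested on single uninjured libraries, being 15 higher and 27 lower with a median of -0.175 without the shallow replicate 2, and 28 and 14 with a median of 0.126 without replicate 3. In KO muscle 40 means were higher and 2 lower, with a median of 0.28, beside 0.22 over those genes, of which 79.0% were higher. Without KO uninjured replicate 2 the KO split was 34 higher and 8 lower, with a median of 0.21 beside 0.08 over all genes. Without KO injured replicate 2 it was 35 and 7, with a median of 0.178 beside 0.179. After TMM scaling, which moved the median of all genes in KO muscle from 0.22 to 0.07, the KO split was 31 higher and 11 lower with a median of 0.19. After upper quartile scaling it was 29 and 13, with a median of 0.14 beside 0.015 over all genes. When scaled to reads outside mitochondrial genes the WT split was 17 higher and 25 lower, with a median of -0.035. At an adjusted p under 0.05, limma called 0 of 30 tested genes in either genotype, and edgeR and DESeq2 called 0. Of all 13337 genes limma called 0 as well (0.0% in WT and in KO). At an unadjusted p under 0.05, limma gave 1 of the 30 in WT (Tk1), beside 1.29% of all genes, and 0 in KO, beside 3.51%.

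Tk1 was the gene with the largest injury difference among those tested in WT. Its values, 4.76, 2.13 and 3.99 RPM in uninjured WT muscle, lay below the 6.08, 6.89 and 6.77 RPM of injured WT muscle. The difference was 0.76 (SE 0.34, 95% interval 0.02 to 1.49, limma unadjusted p = 0.0449, adjusted p = 1.0). In KO muscle Tk1 was at 3.58, 1.34 and 4.02 RPM without and 3.91, 3.43 and 4.58 RPM with injury, and these overlapped. Between the injured and the uninjured library of the same label number, Tk1 was higher with injury in all 6 numbers, by 0.30, 1.33 and 0.64 in WT and 0.10, 0.92 and 0.15 in KO. Tk1 and Cdk1 were the 2 genes of the 42 with that pattern, beside 3.7% of the 17303 genes. Mki67 followed in WT with a difference of 0.75 (95% interval -0.40 to 1.90) and had 0.80 (95% interval -0.35 to 1.94) in KO, with overlap in both. Mcm5 came next in WT at -0.59 (95% interval -1.43 to 0.24). In KO the largest differences were 0.93 for Ccne2 (95% interval -0.42 to 2.28) and 0.80 for Mcm3 (95% interval -0.48 to 2.08). Both rest on KO uninjured replicate 2, where Ccne2 was at 0.0787 RPM against 1.56 and 5.87 RPM in replicates 1 and 3, and Mcm3 was at 0 against 4.22 and 4.44 RPM. In WT uninjured replicates 1 to 3, Ccne2 was at 1.99, 1.06 and 4.91 RPM and Mcm3 at 5.57, 1.06 and 5.07 RPM, so the shallow library was the lowest there. Without KO uninjured replicate 2 the injury difference of Mcm3 in KO was -0.006.

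By role, injured KO muscle had a higher mean for all 10 genes of the spindle and cytokinesis, all 6 of the cyclins and kinase and all 4 of nucleotide supply. Their median differences were 0.19, 0.48 and 0.37, none of these genes passed the test, and 79.0% of the 17303 genes had a higher mean too. With TMM or upper quartile scaling the higher means numbered 8 of 10, 6 of 6 and 3 of 4, beside 59.6% and 52.0% of those genes. Values of injured muscle lay wholly above those of uninjured muscle for 2 genes in WT (Tk1 and the spindle midzone gene Prc1), beside 7.84% of the 17303 genes, and for 4 in KO, beside 6.79%. The 4 were Aurkb, Cdc20, Cenpf and Ect2, all under 1 RPM in each KO library. In KO uninjured replicates 1 to 3, Aurkb had 2, 0 and 5 reads, Cdc20 0, 2 and 10, Cenpf 1, 0 and 3 and Ect2 0, 0 and 3. In replicates 1 and 2 all of these counts are under the floor of 3 reads, so whether the groups are separate is uncertain. Values of injured muscle lay wholly below for 3 genes in WT (Ccna2, Bub1 and Cdc20), beside 2.5%, and for 0 in KO, beside 0.665%. In the shallow WT uninjured replicate 2, Bub1 had 2 reads, Cdc20 had 1 and Prc1 had 0, all under the floor of 3 reads. Ccna2 had 3 reads there, or 1.596 RPM, beside 1.575 RPM in WT injured replicate 1. That gap is smaller than the 0.532 RPM of 1 read, so the separation of Ccna2 is uncertain too. The upper ends of the 95% intervals for the injury difference had a median of 0.86 in WT and 1.13 in KO over the 30 tested genes. They ran from 0.21 (Ccna2) to 1.90 (Mki67) in WT and from 0.49 (Mcm5) to 2.28 (Ccne2) in KO. For a single gene, a rise as large as the upper end of its interval was therefore not excluded.

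The response to injury was not found to differ between the genotypes. The interaction, the injury difference in KO minus that in WT, passed limma for 0 of the 30 tested genes (edgeR and DESeq2 also 0), and 0 had an unadjusted p under 0.05, beside 1.56% of the 13337 genes, of which 0.0% passed. Its median over the 42 genes was 0.31, with 33 positive and 9 negative values, beside 0.16 over the 17303 genes. TMM scaling gave 27 positive and 15 negative values, and upper quartile scaling 24 and 18. Tyms had the largest interaction among the genes given in full, 1.19 (SE 0.59, 95% interval -0.09 to 2.47, limma adjusted p = 0.9999). Cdk1 (0.10) and Mki67 (0.05) had values near 0, with 95% intervals of -1.13 to 1.32 and -1.58 to 1.67.

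**Figure D3:**
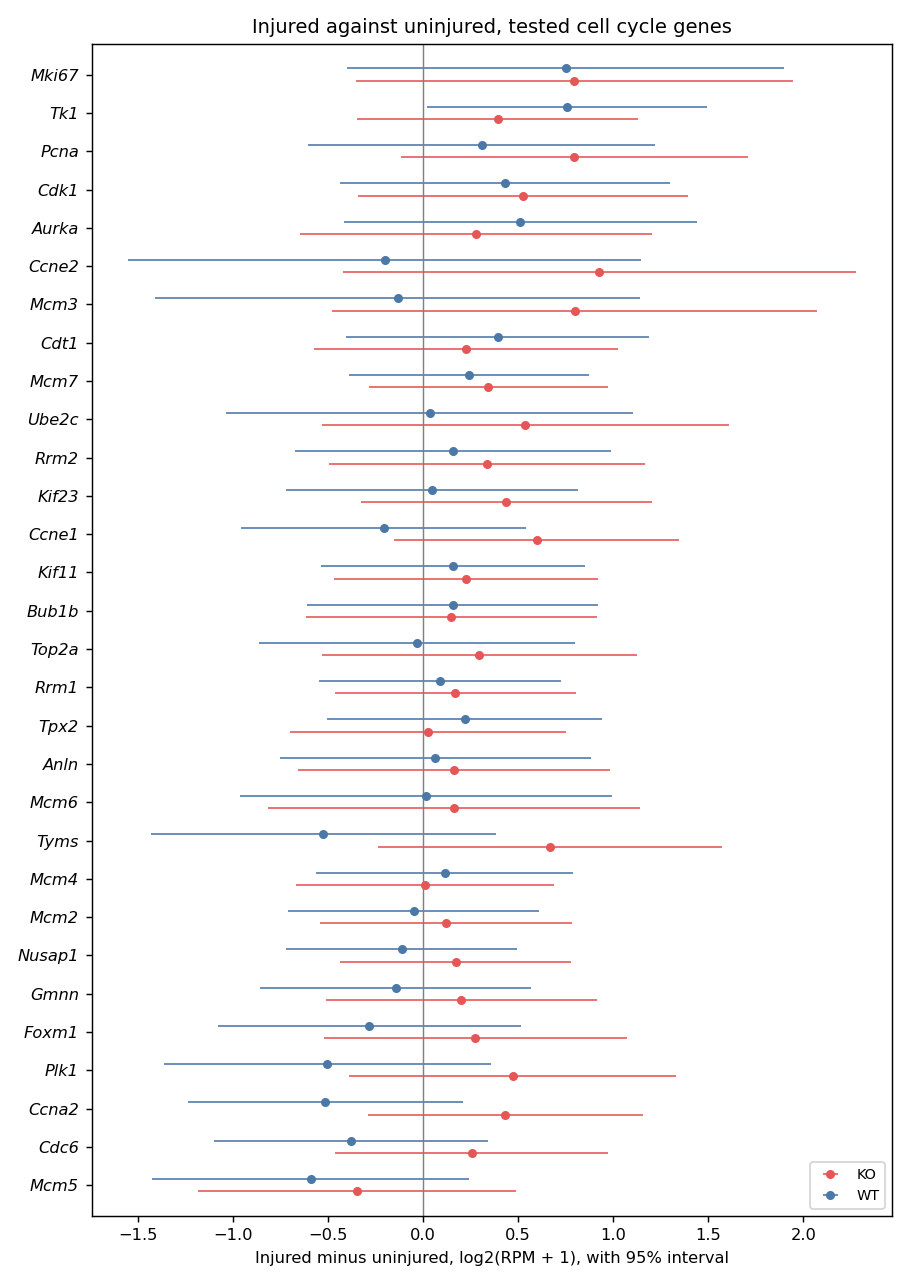
Difference between injured and uninjured muscle in log2(RPM + 1) for the 30 genes tested in KO (red) and WT (blue); points are the limma estimates and lines their 95% intervals, with 3 libraries a group. The interval for Tk1 in WT, 0.02 to 1.49, is the only one that leaves out 0 before adjustment.

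Summed over genes, the S phase and mitotic sets compared as follows. The 14 genes of S phase and nucleotide supply summed to 88.0, 67.0 and 110 RPM in WT uninjured and 72.5, 47.6 and 87.5 RPM in KO uninjured muscle. They summed to 89.9, 89.2 and 96.4 RPM in WT injured and 88.7, 83.5 and 83.5 RPM in KO injured muscle, a narrower spread than without injury. The 26 mitotic genes summed to 42.1, 29.3 and 40.9 RPM in WT uninjured, 22.2, 30.4 and 46.7 RPM in KO uninjured, 43.7, 38.2 and 41.0 RPM in WT injured and 31.2, 59.7 and 41.2 RPM in KO injured muscle. All 4 groups overlapped in the mitotic sum. Genes with more reads weigh more in such sums, and some of them moved in opposite directions. In uninjured muscle the mean of Tpx2 was 6.77 RPM in WT and 13.4 RPM in KO, and that of Ube2c 6.05 and 1.70 RPM. Rrm1, with a mean of 28.2 RPM over the 12 libraries, was the largest part of the S phase sum.

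Markers of other cell types differed beside these genes. The 7 macrophage markers summed to 157, 82.4 and 149 RPM in WT uninjured and to 75.4, 46.9 and 80.5 RPM in KO uninjured muscle, all KO values being lower, and to between 103 and 144 RPM in WT injured and between 90.1 and 90.7 RPM in KO injured muscle. The 7 markers of satellite cells and myoblasts summed to between 40.4 and 50.9 RPM in WT uninjured, 46.8 and 85.2 RPM in KO uninjured, 55.5 and 74.6 RPM in WT injured and 52.5 and 85.7 RPM in KO injured muscle. The 4 markers of regenerating fibres summed to between 657 and 1032 RPM in WT uninjured, 1270 and 2354 RPM in KO uninjured, 1052 and 1781 RPM in WT injured and 802 and 2199 RPM in KO injured muscle. Most of this sum was Myh8, with means of 877 RPM in WT uninjured and 1846 RPM in KO uninjured muscle. Between those 2 groups Myh3 and Myl4 also had higher means in KO, and Ncam1 had a lower one. Of the satellite cell and myoblast markers, Pax7 and Myf5 had lower means in KO uninjured muscle and the others higher. Neutrophil markers summed to 4.09 RPM or less in every library, and Ly6g was at 0 in 11 of 12. The 4 adipocyte markers summed to between 40.4 and 154 RPM in WT uninjured and 117 and 293 RPM in KO uninjured muscle. Fibro-adipogenic markers summed to between 371 and 1344 RPM over the 12 libraries, erythroid markers to between 131 and 477 RPM, and markers of T and B cells to between 0.551 and 14.6 RPM. No gene of any marker list passed limma in any comparison, and the part of these cells in the values of the cell cycle genes was not tested.

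**Figure D4:**
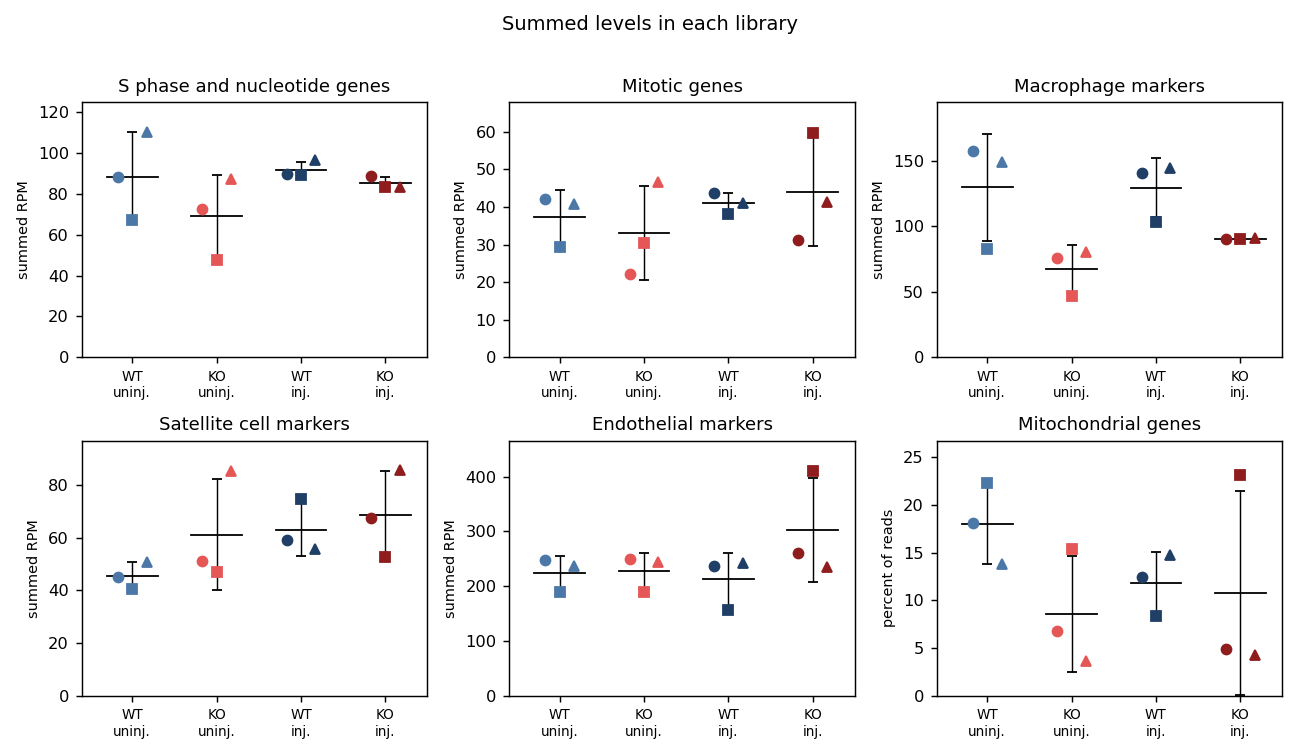
Summed RPM of the S phase and nucleotide genes, the mitotic genes and 3 lists of cell type markers, and the percent of reads on mitochondrial genes, in the 12 libraries; symbols are replicates 1 (circle), 2 (square) and 3 (triangle), and black lines and bars give the mean and SD of 3 libraries. Replicate 2 of injured KO muscle is the highest library for the mitotic genes (59.7 RPM), the endothelial markers (411 RPM) and the mitochondrial share (23.2%).

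The other genes of the list are given by their range over the 12 libraries. Of the origin and nucleotide genes, Mcm2 ran from 5.32 to 11.5 RPM, Mcm4 from 2.82 to 6.47, Mcm6 from 0.647 to 5.57, Mcm7 from 5.70 to 16.5 and Rrm1, the large subunit of ribonucleotide reductase, from 14.6 to 36.6 RPM, all with 3 reads or more in every library. The loading factors Cdc6 and Cdt1 ran from 0.0787 to 1.98 and from 0 to 2.103 RPM. Among the mitotic genes, the kinase gene Aurka (3.72 to 14.5 RPM) and the cytokinesis scaffold gene Anln (0.532 to 3.15 RPM) were read in every library. Nusap1, which bundles microtubules, ran from 0.315 to 1.65 RPM, the kinesin gene Kif11 from 0.0787 to 1.06 RPM, and Kif23 and Kif20a from 0 to 2.18 and 0 to 0.996 RPM. The remaining genes reached at most 1.61 RPM (Ccnb2), 1.35 RPM (Bub1), 0.955 RPM (Cdc20), 0.918 RPM (Cdca8 and Prc1), 0.885 RPM (Aurkb) and 0.676 RPM (Cenpe). Of these 7 genes, only Cenpe had a read in every library.

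The genes moved together only in part. Over the 12 libraries the median Pearson correlation in log2(RPM + 1) was 0.24 among pairs of mitotic genes, 0.23 among pairs of S phase genes and 0.22 between the sets, beside 0.18 among all genes tested. All of these values share library depth and the shallow library. Mki67 was most like Cdk1 (r = 0.92), Top2a (r = 0.77) and Cenpf (r = 0.75). Ube2c was most like Ccna2 (r = 0.84), the helicase gene Mcm6 (r = 0.78) and Birc5 (r = 0.77). Pcna was most like Ccne2 (r = 0.80), and then the kinesin gene Kif20a (r = 0.80) and Mcm3 (r = 0.79). Single pairs of mitotic genes ran from -0.77 to 0.92.

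The other genes of the pathway, 44 in number, hold the D cyclins, the kinase inhibitors, the retinoblastoma and E2F families, the checkpoint and p53 targets, and the MuvB and Myb factors. At an adjusted p under 0.05 limma called 0 of 36 tested genes in uninjured and 0 of 37 in injured muscle between the genotypes, and 0 of 37 for injury in WT, for injury in KO and for the interaction. At an unadjusted p under 0.05, limma gave 2 lower genes in KO uninjured muscle (Gadd45g and Chek2), beside 14.2% of all genes tested, and 2 higher (Cdkn1a and Btg2) and 1 lower (Gadd45g) in KO injured muscle, beside 10.3%. Both counts are below the share over all genes. For injury and the interaction it gave 0.

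Cdkn1a encodes p21, an inhibitor of the cyclin-dependent kinases. It was at 15.99, 15.96 and 19.2 RPM in WT uninjured, 24.9, 14.3 and 23.0 RPM in KO uninjured, 17.2, 11.5 and 15.5 RPM in WT injured and 26.98, 25.2 and 25.9 RPM in KO injured muscle. In injured muscle all KO values lay above all WT values, and uninjured groups overlapped. The injured difference was 0.80 (SE 0.19, 95% interval 0.34 to 1.26, 1.74-fold, limma unadjusted p = 0.00431, adjusted p = 0.251). Over the alternatives its adjusted p ran from 0.00453, in DESeq2, to 0.843, and it passed in that tool and in limma without KO injured replicate 2 (adjusted p = 0.0292). Gadd45g, a stress-induced gene that slows the cycle, was at 128, 149 and 123 RPM in WT uninjured and 46.3, 81.5 and 92.0 RPM in KO uninjured muscle. It was at 177, 211 and 134 RPM in WT injured and 34.5, 66.4 and 85.3 RPM in KO injured muscle, and the genotypes did not overlap in either state. Its difference was -0.91 (SE 0.31, limma adjusted p = 0.229) without and -1.54 (SE 0.35, limma adjusted p = 0.218) with injury. With injury it passed in DESeq2 (adjusted p = 0.0101) and in limma without KO injured replicate 2 (adjusted p = 0.0258), and not under the other alternatives.

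Ccnd1, the cyclin that couples growth signals to the cycle, was at 6.69, 1.06 and 5.57 RPM in WT uninjured, 3.80, 3.62 and 3.76 RPM in KO uninjured, 3.601, 2.47 and 3.71 RPM in WT injured and 4.93, 4.43 and 4.39 RPM in KO injured muscle. The injured groups did not overlap, with a difference of 0.40 (95% interval -0.08 to 0.88, limma adjusted p = 0.554). The checkpoint kinase gene Chek2 had the largest difference of the list in uninjured muscle, -0.92 (95% interval -1.77 to -0.06, limma adjusted p = 0.314), from 5.76, 5.32 and 6.26 RPM in WT to 4.03, 1.57 and 2.55 RPM in KO. The pocket protein gene Rbl2 had the largest injury difference of the list in both genotypes, 0.65 (95% interval -1.01 to 2.32) in WT and 1.25 (95% interval -0.42 to 2.92) in KO, where KO uninjured replicate 2 was at 0.866 RPM against 8.60 and 28.9 RPM.

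Myf6 binding, as measured by the Flag ChIP-seq, was near the start of 1 of the 34 genes with an entry in the promoter table. That gene was Ect2, which encodes an exchange factor needed for cytokinesis. A summit lay within 1000 bp of the start of 1 of 34 genes, beside 2.73% of the 27025 genes of the table. The Ect2 peak, chr3:27154006-27154188 in mm10, had its summit at 27154082, 204 bp before the start, with the authors' fold enrichment of 11.7 and −log10 q of 21.9. The 250 bases before the start of Ect2 are shown because the summit falls in them, with the E-box, CACCTG, in capitals.
Ect2, chr3:27153879-27154128, minus strand: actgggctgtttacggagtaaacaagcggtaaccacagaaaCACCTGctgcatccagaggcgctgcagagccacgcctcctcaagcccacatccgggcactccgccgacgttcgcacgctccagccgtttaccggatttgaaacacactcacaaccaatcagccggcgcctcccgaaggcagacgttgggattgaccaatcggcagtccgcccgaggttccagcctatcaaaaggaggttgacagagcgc

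The E-box lay at chr3:27154082-27154087 and covered the summit. Ect2 RNA was scarce, at 0.837, 0 and 0.856 RPM in WT uninjured, 0, 0 and 0.0701 RPM in KO uninjured, 0.225, 0 and 0.306 RPM in WT injured and 0.214, 0.111 and 0.223 RPM in KO injured muscle. It fell under the limit for testing, the uninjured groups overlapped at the value of 0, and the peak comes from cultured myotubes rather than from these muscles. Within 10000 bp of a start there were peaks at 5 genes (Rrm2, Ccne1, Ube2c, Birc5 and Ect2), beside 12.9% of genes. The Ube2c summit lay 9987 bp after its start, with a fold enrichment of 5.51. Counted over whole genes, which all 42 allow, a summit lay inside 2 (Ect2 and Mcm2), beside 17.1% of 21900 genes, a count chosen after the data were seen. There was 1 ChIP library, so these counts have no replicate check.

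The authors' deposited tables held no q-value under 0.05 for any of the 42 genes. The lowest q was 0.299 in the table of uninjured and 0.520 in that of injured muscle, while 331 (0.668%) and 225 (0.454%) of all 49585 genes had a q under 0.05 in those tables. At a p under 0.05 the authors' deposited tables had 7 of the 42 genes in uninjured and 4 in injured muscle, beside 5.15% and 3.93% of all 49585 genes, many of which have few or no reads. Of the 17303 genes with a mean of at least 0.1 RPM, which take in all 42, the authors' deposited tables had 14.7% and 10.9% at that threshold.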

How the data were processed

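Libraries were made with the TruSeq RNA v2 kit from RNA isolated with Trizol, per the labels' protocols. The authors deposited RPM values for 49585 genes in 12 libraries, in 1 table per injury state, with log2 fold changes (WT over KO), p-values and q-values. The submitters' processing notes name HISAT2 2.1.0, Bowtie 1.1.0, SAMtools, featureCounts, DESeq2 and the builds mm10 and GRCm38.p5, with no role or order. Per the file headers, MACS2 2.1.0.20140616 called the 12898 ChIP-seq peaks on 1 library against its control. The deposited peak list gives the pileup signal at the summit, the fold enrichment ratio and −log10 of p and q, per the file headers.

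Genotypes were compared on the log2(RPM + 1) scale by limma 3.58.1 in R 4.3.3, with a mean-variance trend, in the 6 libraries of an injury state, for genes that reached 1 RPM in 3 libraries or more. Injury and the interaction used all 12 libraries. P-values were two-sided and adjusted by Benjamini-Hochberg over all genes tested, with a threshold of 0.05. The fit was tested on simulated data. On this scale fold changes of low genes are understated. Whole reads were recovered from the RPM steps, and 100% of the values checked were whole within 0.1 read in each library. On these recovered reads edgeR 4.0.16 called 55 genes between the genotypes without and 33 with injury, and DESeq2 1.42.0 called 663 and 427. Depth floors are 3 reads and cover counting error only. Transcript lengths were not used, so levels are not compared between genes. Strand use and the handling of reads with several matches are not given in the sources used here, so values of genes with near-identical copies or antisense partners are uncertain.

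Values in every library are given for members called in a comparison, the 3 tested members with the largest change in each, and 15 set by role. Tpx2, Mcm2, Cdc20, Ect2 and the further members named were chosen after their values were seen. Of the other pathway genes, Cdkn1a, Ccnd1 and the one with the largest change in each comparison were named by rule, Gadd45g without injury and Btg2 after their values were seen. The members and lists were chosen with earlier results of these data known. The marker lists were of muscle fibre, satellite cell, regenerating fibre, macrophage, neutrophil, T and B cell, endothelial, fibro-adipogenic, erythroid and adipocyte genes. Promoters came from a RefSeq table of GRCm38.p6, the same assembly as mm10 apart from patches. Libraries of WT or KO muscle with the same number in the labels, with L uninjured and R injured, may come from 1 animal, which the labels do not state. The main fits of injury and of the interaction treated them as unpaired. Alternatives varied the filter, the pseudocount, the scaling, the tool, the block and the libraries.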

Additional observations from a re-analysis of the deposited data

Results flagged for a closer look

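Injury moved 2 of the 42 genes in opposite directions in the genotypes at every label number, as it did 2.03% of the 17303 genes with a mean of at least 0.1 RPM. For Ccna2 the injured library minus the uninjured library of the same number was -0.47, -0.77 and -0.30 in WT and 0.06, 1.05 and 0.19 in KO on the log2(RPM + 1) scale. The mean in KO minus that in WT was 0.95. The limma interaction for Ccna2 had an adjusted p of 0.9999. For Cdc20 the values were -0.15, -0.41 and -0.71 in WT and 0.49, 0.66 and 0.15 in KO, and the mean in KO minus that in WT was 0.85. This difference in Cdc20 was not tested, because the gene was under the limit on low values. In WT uninjured replicate 2, Cdc20 had 1 read and Ccna2 had 3. The labels do not state that libraries with the same number come from 1 animal and the numbers were not taken to pair them in any test, so these values only set libraries of the same number side by side.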

How the results depend on the processing

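The count of the 42 genes called between KO and WT injured muscle ran from 0 to 2 when single libraries were left out, and was 2 only without KO injured replicate 2. In that fit 2343 of all genes passed as well. The count of the 42 was 0 under every alternative in the other comparisons. With a pseudocount of 0.1 the median difference was -0.62 between KO and WT uninjured muscle and 0.67 between injured and uninjured KO muscle. Without single libraries the injury difference of Mcm3 in KO ran from -0.006 to 1.22. The reversed value came without KO uninjured replicate 2, where Mcm3 had no read. Within 10000 bp of the start 5 genes had a ChIP-seq peak. A summit lay within the gene for 2, and within the gene or 10000 bp of it for 10, beside 25.7% of all genes, both counts having been added after the data were seen. Other alternatives with their values: genes called over the whole table between KO and WT uninjured muscle numbered 96 with TMM scaling, 162 with upper quartile scaling, 205 when scaled to reads outside mitochondrial genes, 167 with all 12 libraries fitted, 7 and 1 with a stricter and no filter on low values, and 3 to 84 without single libraries. In injured muscle they numbered 4 with the stricter filter, 19 with none, 56 with all 12 libraries fitted, and 0 to 2343 without single libraries. With the replicate number as a block, 0 of the 42 genes were called in any comparison, and of all genes 752 were called in uninjured and 0 in injured muscle, and Gadd45g passed in uninjured muscle (-0.91, adjusted p = 0.0489). Deviations of libraries with the same number correlated at 0.22 on average between the genotypes without injury, -0.45 with injury, 0.02 between the injury states in WT and 0.39 in KO. Not every library correlated best with its own number, and the numbers were not taken to pair the libraries. Low read counts limit most of the list, since 13 of 42 genes had at least 3 reads in all libraries, or 20 without the shallow WT uninjured replicate 2. Genes under 1 RPM were left out by the filter on low values, and without that filter all 42 were tested and 0 called.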
